A study of Mus musculus with 6 samples.

Results

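Lipoprotein assembly, cholesterol uptake and sterol export were followed in the liver through 8 genes, Abca1, Abcg1, Abcg5, Abcg8, Scarb1, Lcat, Pltp and Mttp. They were chosen by symbol from the 28450 genes listed, each matched 1 row, and all 8 passed the filter of a mean of at least 1 FPKM (sequenced fragments relative to the length of the gene and the size of the library) that left 10996 genes to test. The samples were livers of 6 male mice aged 12 weeks, kept on a normal diet: 3 mice in which Acsm3, a mitochondrial medium-chain acyl-CoA synthetase gene, was knocked out, and 3 wild-type control mice. Each liver gave 1 library of poly(A)-enriched RNA. The sources used here give neither the strain, nor the disrupted part of Acsm3, nor the tissues that lack it.

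The liver secretes triglyceride and cholesterol in very low density lipoproteins, which are built in the endoplasmic reticulum around apolipoprotein B, and it also starts most high density lipoprotein (HDL) by exporting cholesterol to apolipoprotein A-I. HDL is then reshaped in plasma by enzymes and transfer proteins, and the liver takes its cholesterol back through a surface receptor. Surplus sterol leaves the hepatocyte through the canalicular membrane into bile.

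Of the 8 genes, the exporters Abca1 and Abcg1 rose in the knockout livers and the HDL enzyme gene Lcat fell. Abca1 was 1.65-fold and Abcg1 3.36-fold higher in mean FPKM, and Lcat was 1.27-fold lower. Abcg5, Abcg8, Scarb1, Pltp and Mttp did not pass the test. Genes were called at an adjusted p under 0.05 by limma on log2(FPKM + 1), with Benjamini-Hochberg adjustment over all genes tested. Called higher were 2 of the 8, where 13.9% of all genes tested were, and called lower was 1 of the 8, where 2.61% of all were. The 3 knockout values lay wholly above the 3 control values in 2 of the 8 (33.9% of all genes) and wholly below them in 1 (7.91% of all genes), so the groups were apart in 3 of the 8 where 41.8% of all genes were. The median log2 fold change of the 8 was 0.30, beside 0.13 for all genes tested. With median-ratio scaling the median of all genes was -0.04, and 724 genes were higher and 919 lower in place of 1532 and 287. The calls of Abca1, Abcg1 and Lcat were kept under that scaling, at log2 fold changes of 0.49, 1.17 and -0.55. None of the 3 calls was kept with every mouse left out in turn, as given beside each gene. With no filter, where 26129 genes were tested, Abca1 (adjusted p = 0.0545) and Lcat (adjusted p = 0.06) missed the threshold and Abcg1 passed. No filter ended the calls of 32 of the genes named in the text in all (adjusted p from 0.0508 to 0.616).

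Depth, estimated from the step size of low FPKM, was 15302000 to 16339000 fragments a library. Acsm3 itself was at 32.2 to 34.4 FPKM in control and 0.668 to 2.92 FPKM in knockout livers, lower in every knockout. On the first principal component of all tested genes, knockout 3, at 10.1, lay nearer to the controls (-25.9 to -17.3) than knockouts 1 and 2, at 24.6 and 27.7. Hepatocyte markers summed to 51400 to 60000 FPKM in controls and to 39700 to 43400 FPKM in knockouts, so the labelled tissue was borne out in all 6 livers. Alb alone held 30200 to 37400 FPKM of these sums in controls and 21100 to 24000 FPKM in knockouts. In bulk tissue, fewer cells of a type and less RNA per cell cannot be told apart.

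Stretches of sequence before the start sites are shown for the exporter gene that rose and has an entry, for the enzyme gene that fell, and for the divergent pair Abcg5 and Abcg8. They come from RefSeq on GRCm38.p6, which held windows for 6 of the 8 genes by symbol; Abcg1 and Scarb1 are not shown. All are written 5′ to 3′, on the gene's own strand for Abca1 and Lcat and on the plus strand for the segment between Abcg5 and Abcg8. Capitals mark matches, on either strand, to the E-box CACGTG, the GATA-factor motif AGATAA, the TATA box TATAAA, the GC box GGGCGG or a direct repeat, which is GGTNA followed after any 5 bases by GGTCA. No match in these stretches overlapped another.
Abca1, the 150 bases before the start, chr4:53159896-53160045, minus strand: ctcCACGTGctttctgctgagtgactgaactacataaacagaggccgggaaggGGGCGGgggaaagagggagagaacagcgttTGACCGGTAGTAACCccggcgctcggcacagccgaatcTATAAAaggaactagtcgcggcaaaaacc
Lcat, the 100 bases before the start, chr8:105943403-105943502, minus strand: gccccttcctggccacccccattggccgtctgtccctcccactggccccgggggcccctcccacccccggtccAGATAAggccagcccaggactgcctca
Abcg5 to Abcg8, the segment between the start sites, chr17:84683012-84683120, plus strand: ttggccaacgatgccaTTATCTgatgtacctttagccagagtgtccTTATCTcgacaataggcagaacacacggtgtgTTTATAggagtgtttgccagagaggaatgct

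The direct repeat holds the cores of 2 hormone receptor elements in the same direction, in the spacing that the oxysterol receptors LXR are known to bind with RXR. It matched 67 to 53 bases before the Abca1 start, read on the strand opposite to the gene, and it was found in 0.177% of 32851 RefSeq windows of 250 bases. The windows of Abcg5, Abcg8, Pltp, Lcat and Mttp held no match to it. An E-box stood 147 to 142 bases and a TATAAA 29 to 24 bases before the Abca1 start. E-boxes were found in 6.02%, TATAAA in 12.4% and GGGCGG in 32.7% of all windows. The motif AGATAA, held by 9.99% of windows, matched 27 to 22 bases before the Lcat start. It matched at 2 places in the 109 bases between Abcg5 and Abcg8, 52 to 47 and 22 to 17 bases before the Abcg5 start, and a TATAAA on the Abcg5 strand stood 84 to 79 bases before it. These matches describe the letters only, and binding was not measured.

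**Figure D1:**
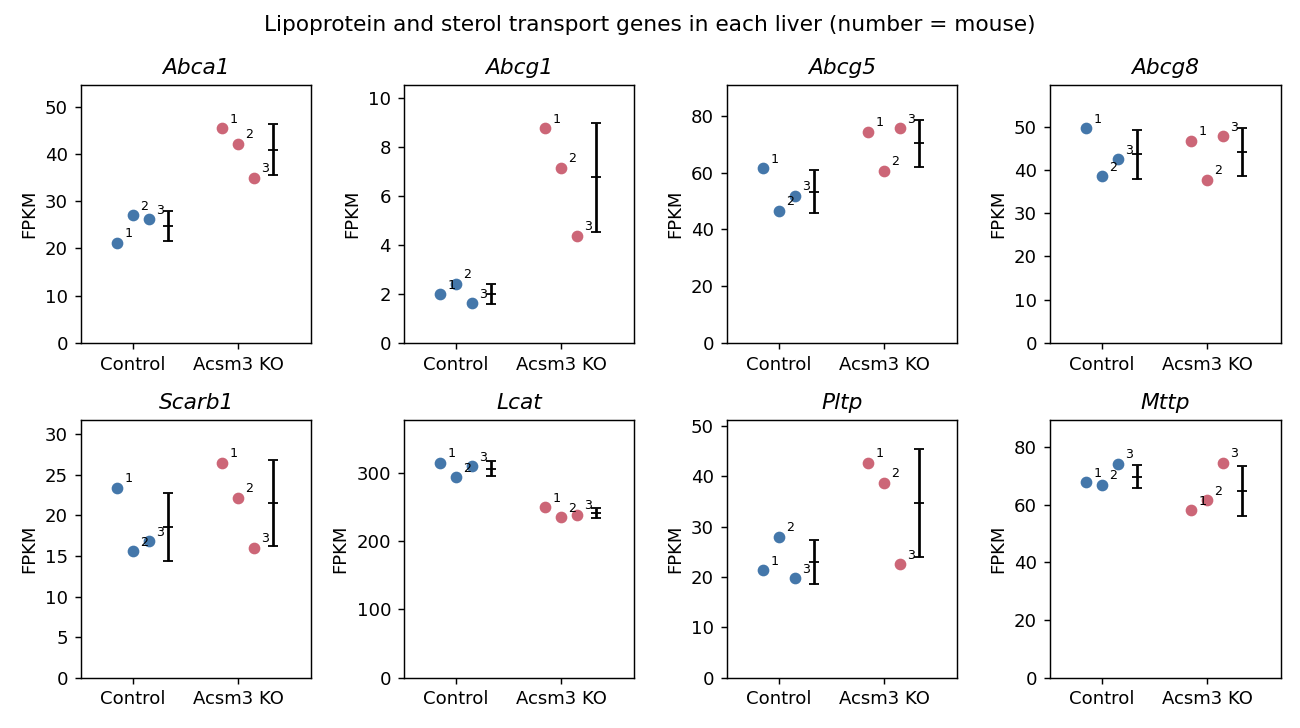
FPKM of the 8 genes in each liver (points, numbered by mouse; control in blue, Acsm3 knockout in red), with the mean ± SD of 3 mice beside each group; each vertical axis starts at 0. The knockout points of Abca1 and Abcg1 all lie above the control points and those of Lcat all below, while Pltp and Scarb1 are low in knockout 3.

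Abca1 encodes the transporter that loads cholesterol and phospholipid onto apolipoprotein A-I, the first step in making HDL. The gene (ENSMUSG00000015243) lies on the minus strand of chromosome 4 at 53030787 to 53159895 in GRCm38. Controls 1, 2 and 3 had 21.2, 27 and 26.2 FPKM, and knockouts 1, 2 and 3 had 45.5, 42.2 and 35 FPKM. Every knockout lay above every control, and knockout 3 was the lowest of the knockouts. The group means were 24.8 ± 3.12 and 40.9 ± 5.33 FPKM (SD, n = 3), and the log2 fold change was 0.70 ± 0.13 (SE, limma adjusted p = 0.0216). These values rest on an estimated 3591 to 4424 fragments in controls and 5869 to 7342 in knockouts. Without 1 mouse the log2 fold change stayed between 0.60 and 0.80, but the call ended without control 1, 2 or 3 or knockout 1 or 2 (limma adjusted p from 0.0508 to 0.0771) and held without knockout 3 (adjusted p = 0.013).

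Abcg1 encodes a transporter that passes cholesterol to HDL that already carries lipid, and it is best known from macrophages. The gene (ENSMUSG00000024030) is on chromosome 17, plus strand, from 31057698 to 31115777. It had the lowest level of the 8 genes, at 2, 2.42 and 1.61 FPKM in the controls and 8.78, 7.15 and 4.38 FPKM in the knockouts. The groups did not overlap, and knockout 3 was again the lowest knockout. Means were 2.01 ± 0.406 and 6.77 ± 2.22 FPKM (SD, n = 3), with a log2 fold change of 1.33 ± 0.22 (SE, limma adjusted p = 0.0172). The controls had an estimated 185 to 280 fragments of this gene and the knockouts 516 to 998. The call ended without control 1, 2 or 3 or knockout 2 (limma adjusted p from 0.0502 to 0.0649), with log2 fold changes of 1.15 to 1.58 over the 6 fits that left out 1 mouse. With a pseudocount of 5 in place of 1 the log2 fold change was 0.73, and the call was kept.

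Markers of macrophages also changed between the genotypes, though not all in the same direction. Of 12 macrophage and Kupffer cell markers tested, 5 rose and 2 fell (4 and 3 after median-ratio scaling, limma), with a median log2 fold change of 0.77; their summed level was 227 to 343 FPKM in controls and 669, 695 and 382 FPKM in knockouts 1, 2 and 3. Cd68 (1.35 ± 0.29) and Mpeg1 (1.32 ± 0.19) rose, and Cd163 (-1.42 ± 0.33) and Timd4 (-0.81 ± 0.14) fell. The Kupffer cell gene Marco lay lower in every knockout than in any control but did not pass (-1.52 ± 0.44, limma adjusted p = 0.0586). Genes known from resident Kupffer cells did not go one way: beside the fall of Timd4, Cd5l rose (1.19 ± 0.28), and Vsig4 (0.51 ± 0.23, adjusted p = 0.157) and Clec4f (0.39 ± 0.23, adjusted p = 0.272) did not pass with all mice, Vsig4 passing without knockout 3 (adjusted p = 0.0174) and with array weights (adjusted p = 0.0415). Of 8 markers of lipid-associated macrophages, 7 rose, among them Gpnmb (3.19 ± 0.34), Mmp12 (2.60 ± 0.34) and Lpl (2.32 ± 0.31), and their sum went from 25.2 to 28.7 FPKM in controls to 126, 135 and 69.2 FPKM in knockouts 1, 2 and 3. None of these markers was at 0 in all livers. Several lipid-associated markers, Gpnmb (0.332 FPKM) and Mmp12 (0.765 FPKM) among them, averaged under 1 FPKM in controls. They reached the filter only through the knockouts, which favours rises in the count of this list. Knockout 3 had the lowest sum of both lists among the knockouts, as it had the lowest Abca1, Abcg1, Pltp and Scarb1. This order was not particular to macrophages. Endothelial markers summed to 106, 108 and 83.9 FPKM in knockouts 1, 2 and 3, and stellate and fibroblast markers to 104, 136 and 97.1 FPKM. The part of macrophages in the levels of Abca1 and Abcg1 was not tested. Cd68, Cd163, Timd4 and Cd5l lost their calls in 4 or 5 of the 6 fits that left out 1 mouse (all without control 1 or 2 or knockout 2, all but Timd4 also without control 3, and all but Cd163 also without knockout 1; adjusted p from 0.051 to 0.115). Mpeg1, Gpnmb, Mmp12 and Lpl kept theirs in all 6.

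**Figure D2:**
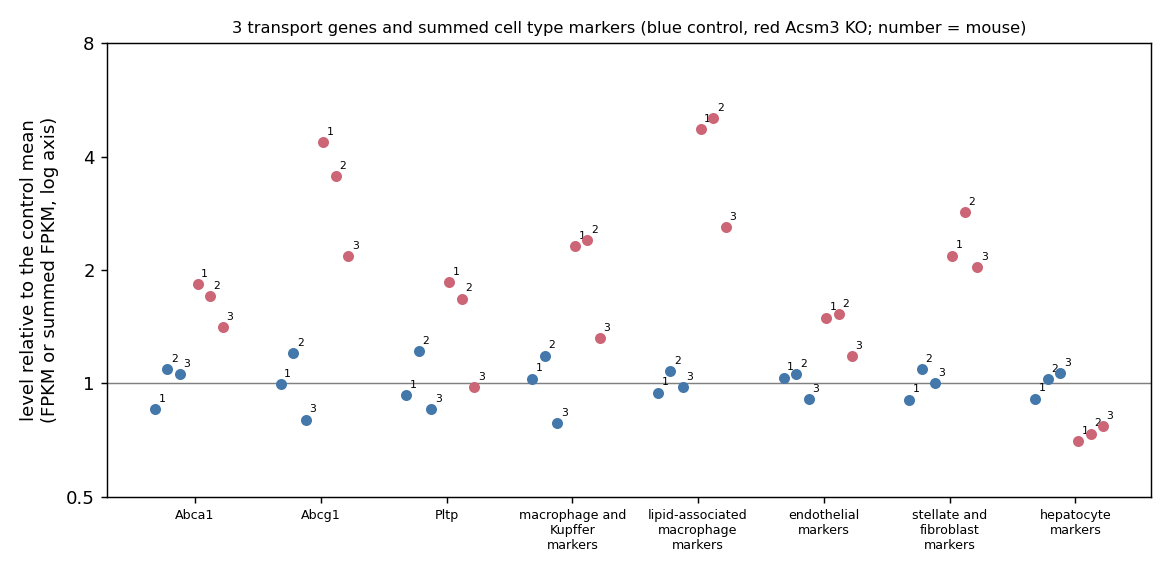
Level of Abca1, Abcg1 and Pltp and summed FPKM of 5 marker lists in each liver, divided by the mean of the 3 controls (log axis; control in blue, Acsm3 knockout in red, numbers give the mouse). Knockout 3 lies below knockouts 1 and 2 in the exporters, in Pltp and in the macrophage, endothelial and stellate sums. Hepatocyte markers, with Alb as the largest part of their sum, lie at 0.704 to 0.77 of the control mean in the knockouts.

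Markers of other cells moved too. Of stellate cell and fibroblast markers 8 of 10 tested rose (6 after median-ratio scaling), led by Col1a1 (2.80 ± 0.31), Col3a1 (2.69 ± 0.23) and Col1a2 (2.08 ± 0.20), and their sum went from 43.1 to 52 FPKM in controls to 97.1 to 136 FPKM in knockouts. Of endothelial markers 3 of 9 rose (2 after median-ratio scaling), namely Stab2 (0.67 ± 0.14), Pecam1 (0.49 ± 0.10) and Tek (0.33 ± 0.09), with sums of 64.3 to 74.9 and 83.9 to 108 FPKM. Of hepatocyte markers 1 of 12 rose, the glutamine synthetase gene Glul (0.55 ± 0.09), and 3 fell, among them Pck1 (-0.79 ± 0.20) and Alb (-0.61 ± 0.13). After median-ratio scaling 0 hepatocyte markers rose and 4 fell, and after quantile normalization 1 rose and 0 fell, with a list median of -0.09. Of cholangiocyte markers 1 of 2 tested rose, Spp1 (1.61 ± 0.23), with sums of 18.2 to 20.4 and 37.4 to 70.1 FPKM, while the 9 genes specific to lymphocytes did not reach the filter. Ptprc, which marks all leukocytes, macrophages included, and stood in the lymphocyte list, rose (0.71 ± 0.19), and the sum of the 10 genes was 2.27 to 2.84 FPKM in controls and 2.83 to 6.52 FPKM in knockouts. Of adipocyte markers 3 of 4 tested rose, Cidea (2.65 ± 0.49), Cfd (2.58 ± 0.36) and Fabp4 (1.05 ± 0.16), with sums of 7.76 to 13.8 and 34.5 to 55.4 FPKM, while Adipoq was listed at 0 in all 3 controls and knockout 1 and at no more than 0.0895 FPKM elsewhere. Col1a1, Col1a2, Cfd and Ptprc averaged 0.41, 0.816, 0.16 and 0.916 FPKM in controls and reached the filter only through the knockouts. The part of these cells in the 8 genes was not tested. No call of the 3 collagens or of Cfd was lost when a mouse was left out; every other called gene of this paragraph lost its call without at least 1 mouse (adjusted p up to 0.149, Ptprc without knockout 2), Spp1 only without control 3 (adjusted p = 0.0517), and Ptprc, Tek and Glul also after median-ratio scaling (adjusted p of 0.0547, 0.225 and 0.056). After quantile normalization Alb (adjusted p = 1), Pck1 (0.0872), Ptprc (0.0699) and Tek (0.256) did not pass, and with array weights Pck1 (0.0681) did not.

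Abcg5 and Abcg8 encode the 2 subunits of the transporter that exports cholesterol and plant sterols into bile. They lie head to head on chromosome 17, Abcg5 (ENSMUSG00000040505) on the minus strand from 84658234 to 84683011 and Abcg8 (ENSMUSG00000024254) on the plus strand from 84676302 to 84700333. The RefSeq start of Abcg5 at 84683011 and the nearer of the 2 RefSeq starts of Abcg8, at 84683121, enclose the segment printed above. Because the longer Abcg8 model begins inside Abcg5, the genes share 6710 bp of span, but only 82 bp of exon (3% of Abcg5 and 2.2% of Abcg8).

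Abcg5 measured 61.6, 46.6 and 51.9 FPKM in controls 1, 2 and 3, against 74.5, 60.7 and 75.8 FPKM in knockouts 1, 2 and 3. The groups overlapped only in that control 1 lay above knockout 2. The log2 fold change was 0.39 ± 0.13 (SE, 95% interval 0.08 to 0.71), which did not pass over all genes (limma adjusted p = 0.0831); after rescaling to a common sum it passed (0.47, adjusted p = 0.0376), and after median-ratio scaling it was 0.18 (adjusted p = 0.414). Abcg8 was at 49.7, 38.6 and 42.5 FPKM in the controls and at 46.7, 37.7 and 47.8 FPKM in the knockouts, so the groups lay on top of each other. Its log2 fold change was 0.02 ± 0.13 (95% interval -0.29 to 0.32, limma adjusted p = 0.947), and it changed sign after median-ratio scaling (-0.19) and quantile normalization (-0.03).

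Within each liver the 2 subunit genes stood in a narrow proportion that differed between the genotypes. The Abcg5 to Abcg8 ratio of FPKM was 1.24, 1.21 and 1.22 in controls 1, 2 and 3 and 1.59, 1.61 and 1.58 in knockouts 1, 2 and 3. No knockout came near a control, and the means were 1.22 ± 0.0178 and 1.60 ± 0.0127 (SD, n = 3), a 1.31-fold difference. An exact two-sided permutation test gave p = 0.1, the smallest value that 3 mice against 3 allow. The spread among mice of a genotype, 1.46% in controls and 0.795% in knockouts, was no larger than the counting error of 2.54% to 3.06% that the estimated fragments imply for each ratio. Both genes had the same order over the controls (1 highest, 2 lowest) and over the knockouts (3 highest, 2 lowest). Multiplying a library by a common factor cannot move this ratio, and it stayed at a log2 difference of 0.38 to 0.40 with each mouse left out. Quantile normalization is not such a scaling, and the ratio was not computed after it. The sources used here do not say if strand was kept, so fragments from the shared exon bases cannot be assigned with certainty, and which transcripts gave the fragments of either gene was not tested.

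**Figure D3:**
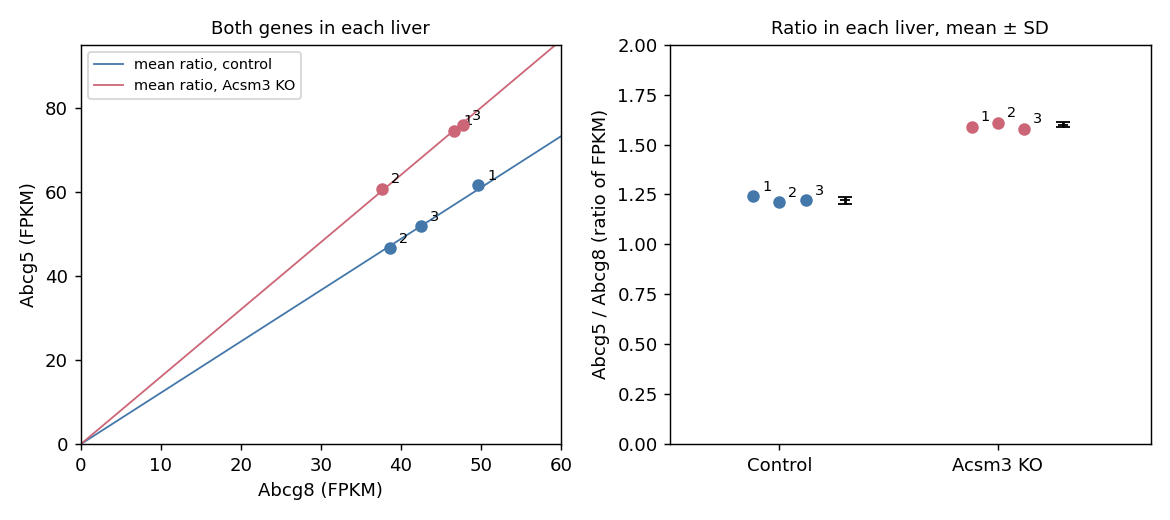
Left, FPKM of Abcg5 against Abcg8 in each liver, with lines from the origin at the mean ratio of each genotype; right, the ratio in each liver with the mean ± SD of 3 mice (control in blue, Acsm3 knockout in red, numbers give the mouse). The controls lie along a line of slope 1.22 and the knockouts along a steeper line of slope 1.60 over the same range of Abcg8.

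Scarb1 encodes scavenger receptor BI, the hepatic receptor that takes cholesteryl ester from HDL. The gene (ENSMUSG00000037936) lies on the minus strand of chromosome 5 at 125277087 to 125341094. It was at 23.4, 15.6 and 16.8 FPKM in the controls and 26.5, 22.2 and 16 FPKM in the knockouts, with control 1 above 2 of the 3 knockouts. The log2 fold change of 0.20 ± 0.21 did not pass (95% interval -0.31 to 0.70, limma adjusted p = 0.546), and after median-ratio scaling it was -0.01. Pdzk1, the adaptor that holds this receptor at the hepatocyte surface, was at 12 ± 0.961 and 11 ± 1.47 FPKM (SD, n = 3, limma adjusted p = 0.468).

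Lcat encodes the plasma enzyme that esterifies cholesterol on HDL, and it was the most abundant of the 8 genes. The gene (ENSMUSG00000035237) lies on the minus strand of chromosome 8 at 105939551 to 105943382. Its level was 315, 294 and 310 FPKM in controls 1, 2 and 3, against 250, 235 and 239 FPKM in knockouts 1, 2 and 3. All knockouts lay below all controls, and the 3 values within each group were close. The means were 306 ± 10.7 and 241 ± 7.96 FPKM (SD, n = 3), and the log2 fold change was -0.34 ± 0.07 (SE, limma adjusted p = 0.0274). It stayed between -0.37 and -0.32 with each mouse left out, but the call ended without control 1, 2 or 3 or knockout 1 or 2 (limma adjusted p from 0.0664 to 0.0999). Hepatocyte markers had a median log2 fold change of -0.28 in the same livers, and their part in the fall of Lcat was not tested.

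Pltp encodes phospholipid transfer protein, which moves phospholipid between lipoproteins and enlarges HDL. The gene (ENSMUSG00000017754) lies on the minus strand of chromosome 2 at 164839518 to 164857711. Controls 1, 2 and 3 stood at 21.4, 28 and 19.7 FPKM, and knockouts 1, 2 and 3 at 42.7, 38.7 and 22.5 FPKM. Knockouts 1 and 2 lay above every control, and knockout 3 lay among the controls. The log2 fold change of 0.54 ± 0.25 did not pass with all mice (95% interval -0.06 to 1.13, limma adjusted p = 0.175), and without knockout 3 it was 0.81 (adjusted p = 0.0231). Of its exon bases 495 (19.3%) are shared with the cathepsin A gene Ctsa on the other strand, so its level is uncertain where strand is not known. Ctsa, named after its values were seen, was at 40.8 ± 4.77 and 44.1 ± 4.70 FPKM (SD, n = 3, limma adjusted p = 0.529).

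Mttp encodes the large subunit of microsomal triglyceride transfer protein, which loads lipid onto apolipoprotein B. The gene (ENSMUSG00000028158) lies on the minus strand of chromosome 3 at 138089854 to 138144968. It was at 67.8, 66.8 and 74.1 FPKM in the controls and 58.1, 61.4 and 74.5 FPKM in the knockouts. Knockouts 1 and 2 lay below every control and knockout 3 above all of them. The log2 fold change of -0.11 ± 0.11 did not pass (95% interval -0.37 to 0.15, limma adjusted p = 0.505). Of its exon bases 457 (7.4%) are shared with Trmt10a on the other strand, which was at no more than 1 FPKM in any liver.

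By mean FPKM in the controls, Lcat (306) stood far above Mttp (69.6), which was followed by Abcg5 (53.4), Abcg8 (43.6), Abca1 (24.8), Pltp (23), Scarb1 (18.6) and Abcg1 (2.01). The control values of Abca1, Pltp and Scarb1 overlapped, and the order of these neighbours differed between the control livers. Those of Abcg5 and Abcg8 overlapped between mice too, though Abcg5 stood above Abcg8 within every liver. In the knockouts Abcg5 (70.4) stood above Mttp (64.7), with overlapping values, and Abca1 (40.9) came close to Abcg8 (44.1). Abcg1 (6.77) stayed the lowest.

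**Figure D4:**
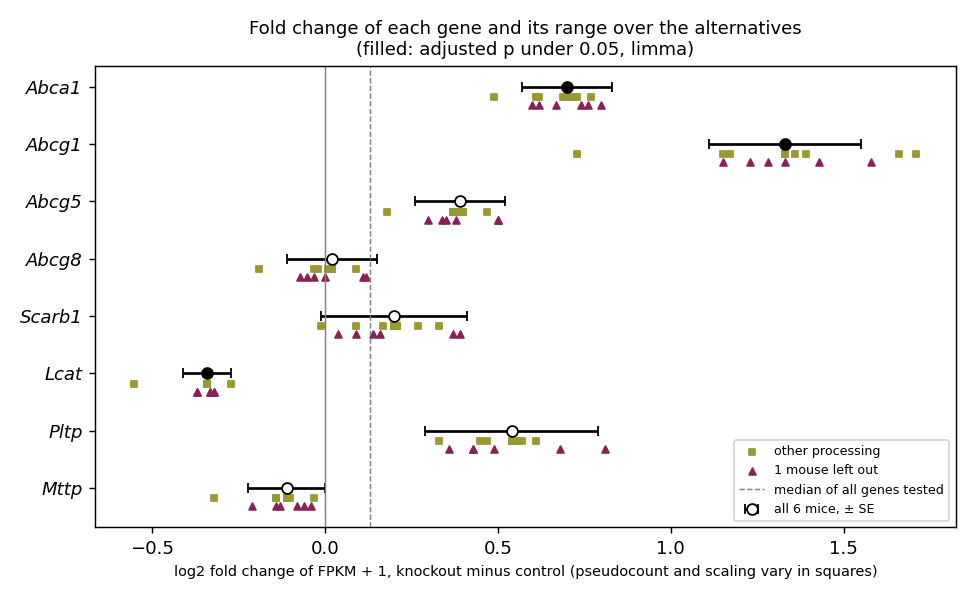
Log2 fold change of FPKM + 1, knockout minus control, for the 8 genes: circles with bars give all 6 mice ± SE (filled where the limma adjusted p is under 0.05), squares the other processing alternatives and triangles the fits without 1 mouse. Abca1 and Abcg1 lie above 0 and Lcat below 0 under every alternative drawn, and Abcg8 falls on both sides of 0.

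Genes that work with Mttp in building and shipping lipoproteins were followed as a list. For this list and all others, the share called among all genes tested was 16.5% (13.9% higher and 2.61% lower, limma). Of 13 tested genes of assembly and secretion, limma called 1, the endoplasmic reticulum cargo receptor gene Surf4 (0.30 ± 0.07, adjusted p = 0.0362), and the median log2 fold change of the list was 0.14. After median-ratio scaling 0 were higher and 2 lower, with a list median of -0.07, and Surf4 was at 0.09 (adjusted p = 0.476), and with no filter its adjusted p was 0.0609. Without 1 mouse Surf4 passed only without knockout 3 (adjusted p = 0.0422, up to 0.123 otherwise).

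Of 15 tested lipoprotein uptake receptors and adaptors, 4 rose and 0 fell (2 and 1 after median-ratio scaling, limma), with a list median of 0.10 (-0.05 after median-ratio scaling). They were the scavenger receptors Stab1 (0.74 ± 0.13), Stab2 (0.67 ± 0.14) and Cd36 (0.58 ± 0.10), and Ccdc93 (0.30 ± 0.08), a subunit of the endosomal CCC complex that returns receptors to the surface. Stab1 and Stab2 are known from sinusoidal endothelium, and Stab2 is itself 1 of the 3 endothelial markers that rose. After median-ratio scaling Cd36 was at 0.37 (adjusted p = 0.0669) and Ccdc93 at 0.16 (adjusted p = 0.235), and Ccdc93 passed in none of the 6 fits that left out 1 mouse (adjusted p from 0.0662 to 0.13). Stab1 and Stab2 lost their calls without control 1, 2 or 3 or knockout 1 or 2 (adjusted p from 0.0541 to 0.0897) and Cd36 without control 1 or 3 or knockout 1 or 2 (adjusted p from 0.0545 to 0.0748).

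Of 7 plasma lipases and regulators 1 rose, lipoprotein lipase Lpl, from 2.87 ± 0.433 to 19.6 ± 8.77 FPKM (SD, n = 3), with 10.7 FPKM in knockout 3 as the lowest knockout; the list median was 0.17 (0.02 after median-ratio scaling). Of 12 tested HDL apolipoproteins and associated proteins 0 rose and 3 fell (limma), with a list median of -0.14. The counts were the same under median-ratio scaling and quantile normalization, whereas 1 rose and 3 fell after rescaling to a common sum, 0 and 5 with array weights and 0 and 1 with no filter. The 3 were Apof (-0.45 ± 0.09), Apom (-0.44 ± 0.07) and Apoh (-0.43 ± 0.08), where Apom carries sphingosine-1-phosphate on HDL. Lpl kept its call with each mouse left out. Apof was lost without control 1 or 2 or knockout 1 or 2, Apom without control 3 or knockout 2 and Apoh without control 1, 2 or 3 or knockout 1 or 2 (adjusted p from 0.0547 to 0.0914).

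Among genes of sterol and lipid movement inside cells, 4 of 11 tested rose and 1 fell (1 and 1 after median-ratio scaling, limma), with a list median of 0.03 (-0.16 after that scaling). The rises were those of the sterol acyltransferase Soat1 (0.78 ± 0.15), the lysosomal sterol carrier Npc2 (0.46 ± 0.10), the sterol exchanger Osbp (0.44 ± 0.07) and lysosomal acid lipase Lipa (0.43 ± 0.10). The cytosolic sterol carrier Stard4 fell (-0.98 ± 0.17). Soat1 averaged 0.667 FPKM in controls and reached the filter only through the knockouts. Npc2, Osbp and Lipa did not pass after median-ratio scaling (adjusted p of 0.066, 0.0659 and 0.138). Soat1, Npc2, Lipa and Stard4 passed only without knockout 3 among the fits that left out 1 mouse (adjusted p from 0.0508 to 0.107 in the others), and Osbp was lost without control 2 or 3 or knockout 2 (adjusted p from 0.0501 to 0.0574).

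Of the other ABC transporters of these subfamilies 17 were tested, of which 6 rose and 1 fell (limma), where 13.9% of all genes were higher and 2.61% lower, with a list median of 0.40 beside 0.13 for all genes. After median-ratio scaling 3 rose and 3 fell, with a median of 0.27. Among the rises, Abcb11 (0.76 ± 0.15), which exports bile salts, was at 57.2 ± 9.35 and 97.2 ± 13.8 FPKM (SD, n = 3), and Abcb4 (0.52 ± 0.07), which moves phosphatidylcholine into bile, at 43.2 ± 1.72 and 62.3 ± 2.34 FPKM. Abca2 (0.65 ± 0.14) and Abca5 (0.61 ± 0.14) rose at levels under 6 FPKM in every liver, and Abca8a fell (-0.53 ± 0.08). Abcb4 kept its call with each mouse left out, though not after median-ratio scaling (0.31, adjusted p = 0.0508). Abcb11 and Abca2 were lost without control 2 or 3 or knockout 1 or 2, Abca5 also without control 1, and Abca8a without control 2 or 3 or knockout 2 (adjusted p from 0.0551 to 0.109). Abca5 also missed the threshold after quantile normalization (adjusted p = 0.068).

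LXR receptors sense oxysterols, and Abca1, Abcg1, Abcg5, Abcg8 and Pltp are known as their targets. Of 13 LXR receptors, partners and other targets, 5 rose and 0 fell (4 and 2 after median-ratio scaling, limma), with a list median of 0.12 (-0.06 after that scaling). The rises were in the lipogenic genes Scd1 (3.11 ± 0.14), Fasn (1.42 ± 0.14) and Acaca (0.59 ± 0.10), and in Lpl (2.32 ± 0.31) and Smpdl3a (0.37 ± 0.10). Lpl also stands in the lists of lipases and of lipid-associated macrophage markers. The targets Srebf1 (19.6 ± 4.19 and 19.5 ± 5.97 FPKM, SD, n = 3, limma adjusted p = 0.951), Lpcat3 (0.12 ± 0.09, adjusted p = 0.344) and Cyp7a1 (-0.39 ± 0.34, adjusted p = 0.447) were not called. Nr1h3, which encodes LXR-alpha, was at 38.9 ± 1.76 and 35.2 ± 3.95 FPKM (SD, n = 3, limma adjusted p = 0.317), and after median-ratio scaling it passed as lower (-0.35, adjusted p = 0.0274). The LXR target Mylip, whose product degrades lipoprotein receptors, was at 7.42 to 8.01 FPKM in controls and at 12.4, 12.9 and 6.04 FPKM in knockouts 1, 2 and 3. It did not pass with all mice (adjusted p = 0.39) and passed without knockout 3 (adjusted p = 0.00666). Scd1 and Fasn passed in all 6 fits that left out 1 mouse, whereas Acaca and Smpdl3a passed only without knockout 3 (adjusted p from 0.0527 to 0.135 otherwise), and Smpdl3a also failed after median-ratio scaling (adjusted p = 0.196) and quantile normalization (adjusted p = 0.0583).

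Of 14 other transcription factors that control sterol transport genes, limma called 1, Hnf4a (0.70 ± 0.12), which encodes a hepatocyte nuclear receptor. The list median was -0.08. After median-ratio scaling 0 of the list were higher and 1 lower, with a list median of -0.27. Hnf4a was at 147, 121 and 151 FPKM in the controls and 229, 200 and 254 FPKM in the knockouts, with no overlap. After median-ratio scaling it was at 0.49 (adjusted p = 0.0769), and it was lost without control 2 or 3 or knockout 1 (adjusted p from 0.0558 to 0.0616).

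**Figure D5:**
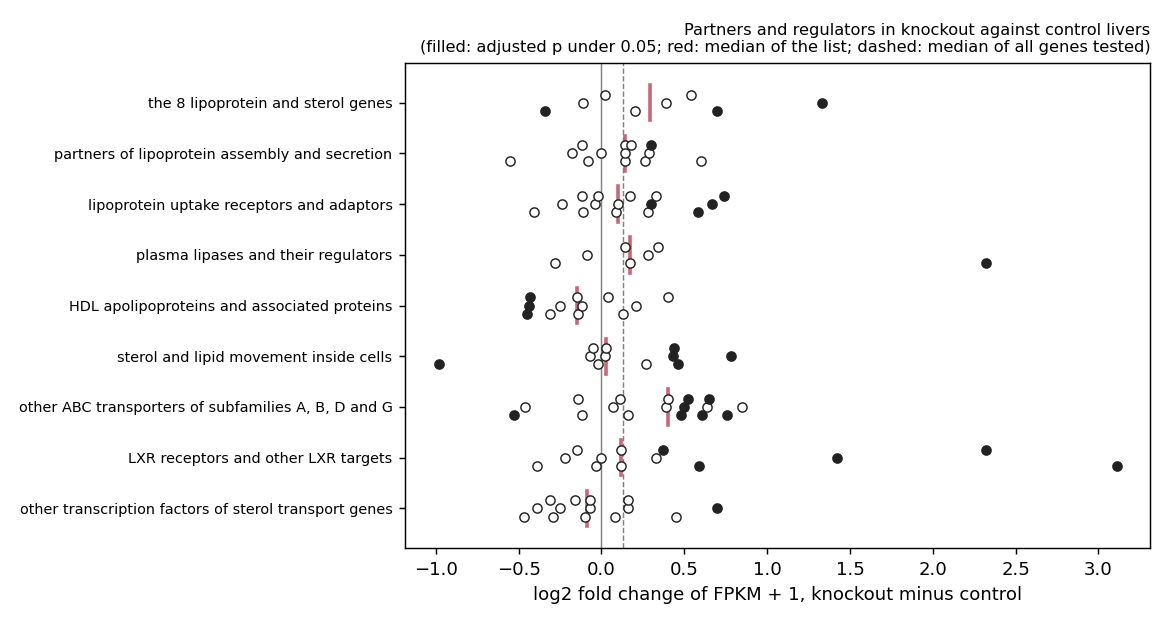
Log2 fold change of FPKM + 1, knockout minus control, of each tested gene (points) in the 8 genes and in 8 lists of partners and regulators; filled points passed an adjusted p of 0.05 (limma), red bars mark the median of each list and the dashed line the median of all genes tested. The other ABC transporters have the highest list median, 0.40, and the 3 falls among HDL proteins lie close together near -0.4.

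For the genes that passed, likeness of pattern was measured as the root mean square difference over the 6 mice between log2(FPKM + 1) values, each gene centred on its own mean. Nearest to Abca1 were the galactosyltransferase Ggta1 (0.0414), the matrix protein gene Postn (0.0676) and B4galt6 (0.0688). Nearest to Abcg1 were carbonyl reductase Cbr3 (0.0889), the myeloid receptor Sirpa (0.09) and the actin regulator Evl (0.0988). Near to Lcat were the ribosomal protein gene Rps18 (0.0145) and Epb41l4b (0.0244). Their likeness to a called gene largely fixes their sign and call, and each lost its call in at least 3 of the fits that left out 1 mouse (adjusted p up to 0.102). The measure gives their likeness in these 6 livers only.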

How the data were processed

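Liver RNA of 3 Acsm3 knockout and 3 control mice was sequenced. The authors deposited 1 table of FPKM values, whose headers give a column for each mouse; groups and replicate numbers came from the titles. Per the submitters' processing notes, which state no roles, HISAT2 2.0.4, Bowtie2 2.2.6, StringTie 1.3.0 and GRCm38 were used. The sources used here give no counting or strand settings. Positions are those of the deposited table. Exon lengths and overlaps come from GENCODE M21 (GRCm38), where 28411 of 28450 identifiers were found. FPKM multiplied by exon length moved in steps, and totals were set where low values came to whole fragments; 98% to 98.1% of values under 20 fragments then lay within 0.1 of a whole number.

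Genes averaging 1 FPKM or more were tested on log2(FPKM + 1), which understates changes of low genes, with limma 3.58.1 in R 4.3.3 (eBayes with trend, Benjamini-Hochberg, threshold 0.05). That mean was over all 6 mice, so a gene under 1 FPKM in controls was tested only where the knockouts were high. Fold changes are knockout minus control ± the moderated SE, with 3 mice a group. The limma p-values set the difference between the groups against the spread between these animals, moderated over genes. The procedure was tested on simulated data. Lengths, sequences and figures were made in Python 3.11.15 (matplotlib 3.10.9, numpy 2.4.6, pandas 2.3.3).

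The 8 genes, the lists and the tests were chosen with earlier results of these data known. Named were the 8 genes, Acsm3, up to 3 genes of largest fold that passed in each list (or the 2 of smallest p), and the 3 genes nearest in pattern to each gene that passed. Of these, 1 is not reported here. Osbp, Lipa, Abcb4, Abca8a, Acaca, Smpdl3a, Ccdc93, Nr1h3, Mylip, Pdzk1, Timd4, Cd5l, Vsig4, Clec4f, Ctsa, Adipoq, Marco, Srebf1, Lpcat3 and Cyp7a1 were chosen on seeing their values. Ctsa, Adipoq, Marco, Srebf1, Lpcat3 and Cyp7a1 are given under the main setting only. The settings changed in turn were the pseudocount (0.1 and 5), the filter (none, and 5 FPKM), the scaling (median ratio, quantile, common sum), limma's options (no trend, robust, array weights), a replicate block, each mouse left out and, added after the data were seen, voom on recovered fragments. Same-numbered mice had correlations of their deviations from group means of 0.11, 0.09 and 0.19, so the numbers were not taken to pair the mice.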

Additional observations from a re-analysis of the deposited data

How the results depend on the processing

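The calls of Abca1, Abcg1 and Lcat were kept under pseudocounts of 0.1 and 5, the 3 other scalings, limma without trend, robust or with array weights, the replicate block and voom, and Abca1 and Lcat under a filter at 5 FPKM, which Abcg1 did not reach. With no filter, where 26129 genes were tested, 1 of the 8 genes was called (Abcg1, adjusted p = 0.0496), and Abca1 and Lcat missed the threshold (adjusted p of 0.0545 and 0.06). No filter also ended the calls of Surf4, Stab2, Ccdc93, Apof, Apoh, Soat1, Npc2, Lipa, Abcb11, Abca2, Abca5, Acaca, Smpdl3a, Hnf4a, Pck1, Alb, Cd163, Cd68, Timd4, Cd5l, Pecam1, Tek, Ptprc, Cidea, Ggta1, Postn, B4galt6, Sirpa, Evl and Epb41l4b. A pseudocount of 5 ended those of Tek, Ptprc and Ccdc93, limma without trend those of Tek and Smpdl3a, and quantile normalization also that of Postn (adjusted p = 0.0503) and Ccdc93. Over all genes, 1819 calls became 650 with no filter, 1108 at 5 FPKM, where 5571 genes were tested, and 3279 with array weights. Leaving out each mouse gave 0 to 4 calls among the 8 genes and 287 to 2250 over all genes, the highest of both without knockout 3 and at most 641 without another mouse; lower power with 1 mouse fewer was not separated from the weight of single mice. With the replicate block 2018 genes were called and 4 of the 8, Abcg5 being added (0.39, adjusted p = 0.037), and Pck1 (0.0619), Tek (0.0637) and Ccdc93 (0.0755) did not pass. Every control mouse correlated best with the knockout of its own number, a hint from the data and not from the design. The ratio of Abcg5 to Abcg8 kept its log2 difference of 0.39 with the replicate block (exact sign-flip test p = 0.25, the smallest that 3 pairs allow).

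Among the genes followed over the settings, changes of sign were seen for Abcg8 and Scarb1. Abcg8 went from 0.02 to -0.19 (median-ratio scaling), -0.03 (quantile normalization), -0.02 (array weights), -0.07 (without control 2), -0.03 (without knockout 1) and -0.05 (without knockout 3), with 0.12 without knockout 2 as its highest, and Scarb1 to -0.01 (median-ratio scaling). The cause was not tested. Abcg1, at 185 to 280 estimated fragments in a control, had the least depth of the 8 genes.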
